A study of Mus musculus with 6 samples.

Results

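Caveola and diaphragm genes of endothelium were followed in RNA sequencing of cells sorted from mouse melanomas. The 5 genes were chosen by name for their function (Cav1, Cav2, Plvap, Ehd2 and Pacsin2) among the 24421 gene symbols counted, and each had a row in every library. Tumours of the transplantable melanoma line B16F0 were grown under the skin of C57BL/6 mice for 17 days, and the endothelial population was then taken by flow cytometry. Mice had received 15C4, an antibody that blocks the secreted glycoprotein LRG1, at 50 mg/kg every 3 days, or control IgG on the same schedule. Each group holds 3 libraries, named 15C4 1 to 3 and IgG 1 to 3. Whether each library stands for its own animal is not stated in the labels, so a p-value here weighs a difference against library-to-library spread that may be technical. The gate of the sort is not given in the sources used here.

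Caveolae are flask-shaped pits of the plasma membrane and are abundant in the endothelium of many vascular beds. Caveolin-1 inserts into the membrane and, with caveolin-2 and the cavin proteins, forms the coat, while the ATPase EHD2 sits at the neck and PACSIN2 bends membrane through its F-BAR domain. PLVAP forms the thin diaphragms that span the openings of endothelial caveolae, fenestrae and transendothelial channels, and it is used as a marker of leaky vessels, including those of tumours.

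Cav1 and Cav2 are neighbours. In GENCODE M21 on GRCm38, Cav2 (ENSMUSG00000000058.6) spans chromosome 6, 17281185 to 17289115, and Cav1 (ENSMUSG00000007655.16) spans 17306335 to 17341452 on the same strand. The 17219 bases between them hold 0 other counted genes. The antisense gene Gm15581 (17206823 to 17385604, minus strand), which has no row in the counts, spans this gap and both genes. The 250 bases before the annotated start of each are shown as a description, since these adjacent genes had different patterns over the libraries. Any link between the sequences and those patterns was not tested. The sequences are RefSeq start regions of GRCm38.p6 on the plus strand, 5′ to 3′, at chr6:17306085-17306334 for Cav1 and chr6:17280935-17281184 for Cav2. Capitals mark the GC box GGGCGG, read on both strands.
Cav1: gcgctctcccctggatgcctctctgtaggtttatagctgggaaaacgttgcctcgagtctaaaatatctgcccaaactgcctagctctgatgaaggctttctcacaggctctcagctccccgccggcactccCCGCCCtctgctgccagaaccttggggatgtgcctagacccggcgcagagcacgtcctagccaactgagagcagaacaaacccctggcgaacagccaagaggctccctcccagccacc
Cav2: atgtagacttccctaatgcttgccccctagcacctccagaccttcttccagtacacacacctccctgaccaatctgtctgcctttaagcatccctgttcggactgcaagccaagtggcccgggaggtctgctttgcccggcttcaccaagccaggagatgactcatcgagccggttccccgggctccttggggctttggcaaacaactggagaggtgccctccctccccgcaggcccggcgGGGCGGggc
Each window holds 1 match, on opposite strands, and 32.7% of the 32851 start regions in the table hold at least 1. The windows are 59.6% G or C for Cav1 and 62% for Cav2, against a median of 52.4% over all start regions. TATAAA, on either strand, had 1 match in the Cav1 window and 0 in the Cav2 window and occurs in 12.4% of all regions. The ETS core CCGGAA had 0 matches in both and occurs in 12%. A RefSeq table entry was matched for 4 of the 5 genes, all but Plvap, and Cav1 has a second listed start, at which the GC box had 0 matches. These matches describe letters and not binding.

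The libraries differed in depth and in content. Total counts lay between 5175600 and 19572202 per library, and expression is given as CPM, counts scaled to the library total. The sort held endothelial transcripts in every library, but their share varied. The summed CPM of 22 pan-endothelial genes was 1979, 3702 and 1961 in 15C4, against 2347, 2945 and 246 in IgG. The most abundant of them, Cdh5, which encodes VE-cadherin, was at 505, 1240 and 970.5 CPM in 15C4 and at 624, 1201 and 46.3 CPM in IgG. The 13 melanocyte genes summed to between 24213 and 29360 CPM, which was 98.3 times the pan-endothelial sum in IgG 3 and between 6.65 and 14.5 times in the others. In bulk RNA, fewer endothelial cells and less RNA per cell cannot be told apart. 15C4 3 lay away from the other libraries along the leading principal component (45.7% of variance), and 1537 of the genes tested were listed there with no count, where other libraries had 31 to 507 such genes. IgG 2 held 1168 CPM of lymphatic endothelial markers, against 11.6 to 63.8 CPM in the other libraries, with Mmrn1 at 578 CPM. IgG 1 held 471 CPM of T and NK cell markers, against 1.80 to 11.7 CPM, with Gzma at 178 CPM.

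None of the 5 caveola and diaphragm genes passed the test between 15C4 and IgG. Cav1, Cav2, Plvap and Ehd2 had fitted log2 fold changes above 0 and Pacsin2 had one below 0, all within the spread of the libraries. The counts were tested with edgeR's quasi-likelihood test over all 11144 genes that passed a filter on low counts, which all 5 genes passed. Of the 5, 0 had an adjusted p under 0.05, where the share of all tested genes called was 0%. At an unadjusted p under 0.05, 0 of the 5 passed, against 2.58% of all genes. DESeq2 called 0.233% of the genes and 0 of the 5, with no adjusted p given for Ehd2. For 0 of the 5 did the 15C4 and IgG libraries lie apart without overlap in CPM, against 9.52% of all tested genes. The median log2 fold change of the 5 was 0.38, against 0.01 over all genes, of which 5649 were fitted above 0. A positive median was not particular to the 5. It was 0.34 for the 22 pan-endothelial genes, with 19 above and 3 below 0. For the 13 melanocyte genes it was 0.29, with 9 above and 4 below 0.

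Cav1, the gene of the main coat protein, was at 138, 822 and 669 CPM in the 15C4 libraries (1156, 16088 and 4277 counts), against 602, 515 and 262 CPM in the IgG libraries (3115, 4963 and 3056 counts). The lowest and the highest value of all 6 were both in 15C4, so the IgG range lay inside the 15C4 range. Cav1 averaged 543 ± 359 CPM over the 15C4 libraries and 459.5 ± 177 CPM over the IgG libraries (SD, n = 3 each). Its fitted log2 fold change was 0.38 (SE 0.64, edgeR adjusted p = 0.9997). Without 15C4 1, the low library, the log2 fold change was 0.86, and without 15C4 2, the high one, it was -0.0062.

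Cav2, whose protein needs caveolin-1 to reach the cell surface, was at 402, 620.4 and 568 CPM in 15C4, against 256, 415 and 715 CPM in IgG. The 15C4 values lay within the IgG range, whose lowest and highest values were IgG 1 and IgG 3. Cav2 averaged 530.4 ± 114 CPM over the 15C4 libraries and 462 ± 233 CPM over the IgG libraries (SD, n = 3 each). Its fitted log2 fold change was 0.30 (SE 0.43, edgeR adjusted p = 0.9997). It was 0.80 without IgG 3 and 0.014 without IgG 1.

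Plvap (GRCm38 chromosome 8, 71497765 to 71511752, minus strand), the gene of the diaphragm protein, was at 120.2, 227 and 73.7 CPM in 15C4, against 132, 182 and 16.1 CPM in IgG. IgG 3 was the low library, and the other 5 lay between 73.7 and 227 CPM with the groups mixed. Plvap averaged 140.3 ± 78.6 CPM over the 15C4 libraries and 110.2 ± 85.3 CPM over the IgG libraries (SD, n = 3 each). Its fitted log2 fold change was 0.44 (SE 0.78, edgeR adjusted p = 0.9997). Without IgG 3 it was -0.050 and without 15C4 2 it was -0.094. The 3′ end of Plvap overlaps Gtpbp3 on the other strand in GENCODE M21, and the strand setting of the counting is not given. Gtpbp3 had 96, 12 and 98 counts in 15C4 and 19, 21 and 42 in IgG, against 1010, 4441 and 471 counts of Plvap in 15C4 and 683, 1759 and 188 in IgG.

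Ehd2 (chromosome 7, 15946958 to 15967567, minus strand), which encodes the ATPase of the caveola neck, was at 0.952, 8.33 and 0.626 CPM in 15C4, against 4.64, 2.90 and 0.428 CPM in IgG. These are 8, 163 and 4 counts in 15C4 and 24, 28 and 5 counts in IgG, so 15C4 2 held 163 of the 232 counts. Exact Poisson 95% intervals cover counting error only and treat each read as independent. They ran from 0.411 to 1.88 CPM in 15C4 1, 0.17 to 1.60 CPM in 15C4 3 and 0.139 to 1.00 CPM in IgG 3. With so few counts, these 3 libraries could not be ranked. The log2 fold change was 0.44 (SE 1.60, edgeR adjusted p = 0.9997), and it was -1.64 without 15C4 2 and -0.064 without IgG 3.

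Pacsin2 (chromosome 15, 83375607 to 83464606, minus strand), the gene of a membrane-bending protein of caveolae that is also made in many other cells, was at 75.8, 59.4 and 34.6 CPM in 15C4, against 57.0, 94.5 and 128 CPM in IgG. IgG 2 and IgG 3 lay above every 15C4 library, and IgG 1 lay below 15C4 1 and 15C4 2. Pacsin2 averaged 56.6 ± 20.8 CPM over the 15C4 libraries and 93.1 ± 35.4 CPM over the IgG libraries (SD, n = 3 each). Its fitted log2 fold change was -0.65 (SE 0.49, unadjusted p = 0.213, edgeR adjusted p = 0.9997). Its sign was the same with each library left out in turn, between -0.91 and -0.32, the smallest difference being without IgG 3. In the authors' deposited table, which gives IgG over 15C4, Pacsin2 had a log2 fold change of 0.615 with an adjusted p of 0.521, and the adjusted p of the other 4 genes lay between 0.918 and 0.955.

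**Figure D1:**
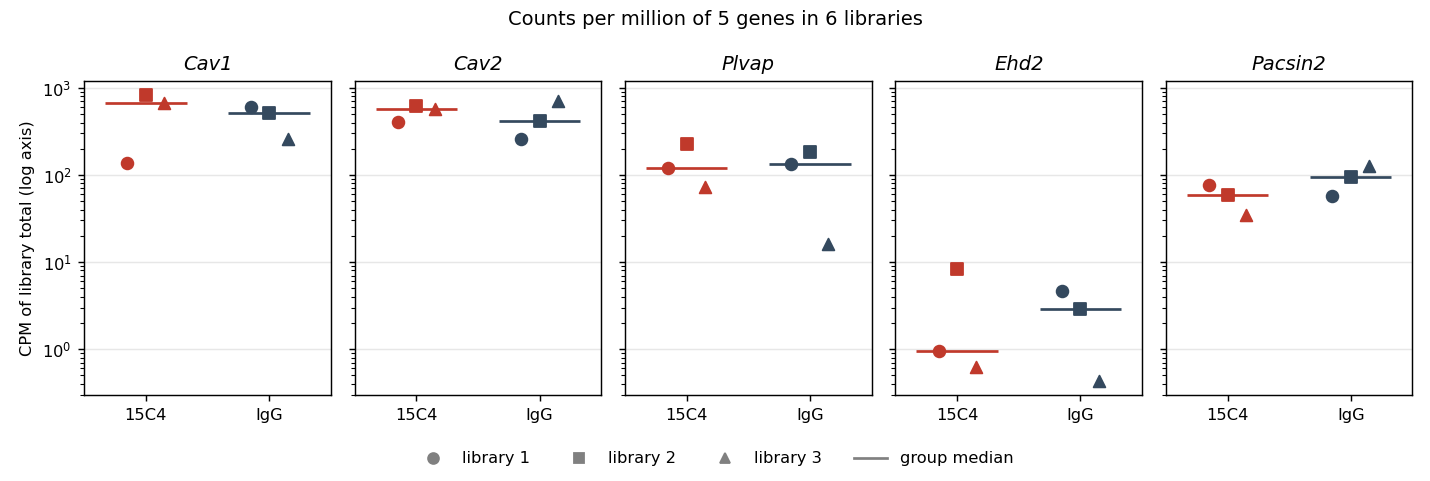
CPM of the library total on a log axis for each gene, with the 3 15C4 libraries on the left and the 3 IgG libraries on the right of each panel, and the group median as a line. The groups overlap for all 5 genes, and IgG 3 is the lowest library for Plvap at 16.1 CPM and the highest for Cav2 at 715 CPM and Pacsin2 at 128 CPM.

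The summed CPM of the 5 genes was 737, 1737 and 1346 in 15C4, against 1052, 1209 and 1122 in IgG, with the groups overlapping. Cav1 made up 18.7%, 47.3% and 49.7% of this sum in 15C4, against 57.2%, 42.6% and 23.3% in IgG. Cav2 made up 54.6%, 35.7% and 42.2% in 15C4, against 24.4%, 34.3% and 63.8% in IgG. The Cav1 share was lowest and the Cav2 share highest in the same libraries, 15C4 1 and IgG 3, 1 from each group. Cav1 and Cav2 made up most of the sum in every library, so their shares are largely tied by construction.

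Levels of different genes were compared per kilobase of exon (CPM per kb, with exon lengths from GENCODE M21). Ehd2 was lowest in all 6 libraries, at 0.122 to 1.63 CPM per kb in 15C4 and 0.0837 to 0.906 CPM per kb in IgG. Cav2 was above Plvap in 6 of 6 libraries, by 1.16 to 26.5 times. Cav1 was above Plvap in 5 of 6, the exception being 15C4 1 (40.0 CPM per kb for Cav1 and 60.5 for Plvap). Plvap was above Pacsin2 in 5 of 6, the exception being IgG 3 (8.11 CPM per kb for Plvap and 26.0 for Pacsin2). The order of Cav1 and Cav2 was not fixed, since Cav2 was the higher in 2 of 6 libraries and their ranges overlapped.

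The ratio of Cav2 to Cav1 per kb was 3.02, 0.779 and 0.877 in the 15C4 libraries, against 0.440, 0.832 and 2.82 in the IgG libraries. It was thus above 1 in 15C4 1 and IgG 3 and below 1 in the other 4, with both groups on both sides. In 15C4 1 Cav1 was at its lowest, 138 CPM, with Cav2 at 402 CPM, and in IgG 3 Cav1 was at 262 CPM with Cav2 at 715 CPM. Pearson's r between log2(CPM + 1) of Cav1 and of Cav2 was 0.0049 over the 6 libraries, a description of points that share their library depth and scaling.

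**Figure D2:**
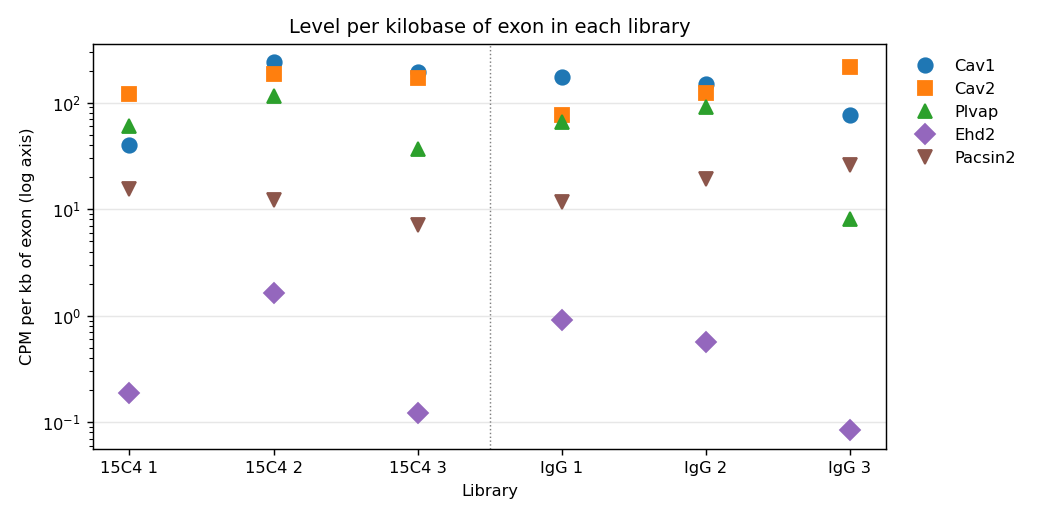
CPM per kb of exon on a log axis for the 5 genes in each library, with the 15C4 libraries left of the dotted line and the IgG libraries right of it. Cav2 stands above Cav1 in 15C4 1 and IgG 3, and Plvap stands below Pacsin2 in IgG 3.

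The 5 genes stood differently against the endothelial content of the libraries. Each gene's CPM was expressed as a percentage of the pan-endothelial sum, a list of 22 genes that holds none of the 5. Plvap was at 6.08%, 6.13% and 3.76% of that sum in the 15C4 libraries, against 5.62%, 6.19% and 6.54% in the IgG libraries. Its highest and lowest value differed 1.74-fold, although its CPM differed 14.1-fold. The narrow range depended on the list of 22 genes as denominator: the ratio of Plvap to Cdh5 alone was 0.238, 0.183 and 0.0759 in 15C4, against 0.212, 0.152 and 0.348 in IgG, a 4.59-fold range. Over 9037 tested genes with counts in every library the median of this range was 23.4-fold, and 0.0553% of them had a narrower range than Plvap, against 2.42% without IgG 3. For 20 pan-endothelial genes with counts in every library it was 5.30-fold, and these are part of the sum itself.

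Cav2 was at 20.3%, 16.8% and 29.0% of the pan-endothelial sum in 15C4, against 10.9%, 14.1% and 291% in IgG. Pacsin2 was at 3.83%, 1.61% and 1.76% in 15C4, against 2.43%, 3.21% and 51.9% in IgG. Cav1 was at 6.95%, 22.2% and 34.1% in 15C4, against 25.6%, 17.5% and 106% in IgG. For these 3 genes IgG 3, where the pan-endothelial sum was smallest, was the highest library. The median tested gene stood in CPM in IgG 3 at 0.935 times the mean of the other 5 libraries, so a high share of the small sum was common there. Ehd2 was at 0.0319% to 0.225% in 15C4 and at 0.0986% to 0.198% in IgG, where IgG 3 at 0.174% lay inside the range of the others. With 5 counts in IgG 3 and 4 counts in 15C4 3, the place of IgG 3 in that range is uncertain. In raw CPM, IgG 3 stood at 0.110 times the mean of the other 5 libraries for Plvap, 0.123 times for Ehd2, 0.477 times for Cav1, 1.58 times for Cav2 and 1.99 times for Pacsin2. Among all tested genes this placed Plvap at percentile 7.65, Ehd2 at 8.18, Cav1 at 21.3, Cav2 at 82.5 and Pacsin2 at 90.5. The pan-endothelial sum stood at 0.0952 times, all 22 of its genes were below 1, and the melanocyte sum stood at 0.874 times.

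Without IgG 3 the contrast was smaller. The range of the share was then 1.65-fold for Plvap, 2.39-fold for Pacsin2, 2.66-fold for Cav2, 4.91-fold for Cav1 and 7.05-fold for Ehd2, against a median of 4.43-fold over all genes and 3.08-fold over the pan-endothelial genes. The low end of the Ehd2 range, in 15C4 3, rests on 4 counts. Of the other cell types, IgG 3 had the lowest summed markers of pericytes and smooth muscle (10.5 CPM, against 32.3 to 103 CPM elsewhere) and of lymphatic endothelium (11.6 CPM). Fibroblast markers there summed to 1.71 CPM, against 0.119 to 155 CPM elsewhere, and macrophage and monocyte markers to 27.9 CPM, against 0 to 53.7 CPM. Of the markers most abundant by mean CPM over all libraries, the pericyte gene Abcc9 was at 1.71 CPM in IgG 3. The fibroblast gene Lum was at 1.20 CPM there and the macrophage gene Cd68 at 27.2 CPM. Cd68 thus made up most of the macrophage and monocyte sum in IgG 3, where Csf1r, C1qa, C1qc, Mrc1 and Lyz2 were at 0 CPM. In 15C4 3 the fibroblast sum of 155 CPM was mostly Lum at 151 CPM, with Col1a2 at 0.469 and Col3a1 at 0.782 CPM. In IgG 1 it was 99.1 CPM, with Col1a2 at 24.3 and Col3a1 at 25.5 CPM. Abcc9 was not the highest pericyte gene in IgG 3, where Kcnj8 was at 6.17 CPM. The pericyte and smooth muscle sum rests on few genes. Rgs5, Pdgfrb, Myh11, Des and Notch3 were at 5.82 CPM or less in every library. In IgG 2, the highest library, Abcc9 was at 59.4 CPM and Kcnj8 at 40.2 CPM. Of the 5 adipocyte genes, Fabp4, which capillary endothelium also makes, was at 326, 2170 and 513 CPM in 15C4, against 1136, 942 and 111 CPM in IgG. The other adipocyte genes were at or near 0, with 0 counts of Adipoq, Plin1 and Cidec in all libraries and 3 counts of Lep in 15C4 2. The melanocyte gene Dct was at 14005, 9795 and 12481 CPM in 15C4, against 16944, 13743 and 10702 CPM in IgG. The part of the melanocyte transcripts in the Cav1, Cav2 and Pacsin2 levels was not tested.

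**Figure D3:**
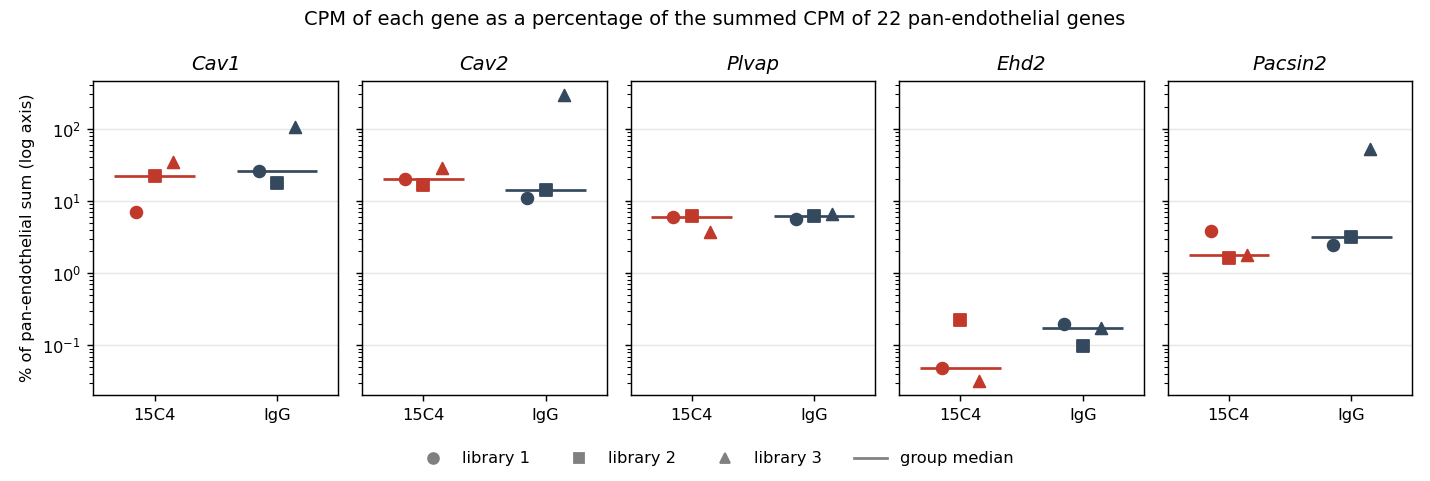
Each gene's CPM as a percentage of the summed CPM of 22 pan-endothelial genes, on a log axis, with 15C4 libraries left and IgG libraries right in each panel and the group median as a line. Plvap lies between 3.76% and 6.54%, while IgG 3 reaches 106% for Cav1, 291% for Cav2 and 51.9% for Pacsin2.

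When the pan-endothelial sum replaced the library size in the fit, the median log2 fold change of all 11144 genes moved to -1.90, since the small sum of IgG 3 scales that library up. Relative to that shift, Plvap (-0.20) and Ehd2 (-0.60) lay above it, Cav1 (-1.24) also, and Cav2 (-2.26) and Pacsin2 (-3.00) lay below it. The edgeR adjusted p of the 5 genes was at least 0.495 in this fit, which called 4 genes, 0 of them among the 5. As group differences of the log2 share, with no test, Cav2 was at -0.73 with all libraries and at 0.79 without IgG 3, and Pacsin2 was at -1.74 and at -0.33.

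**Figure D4:**
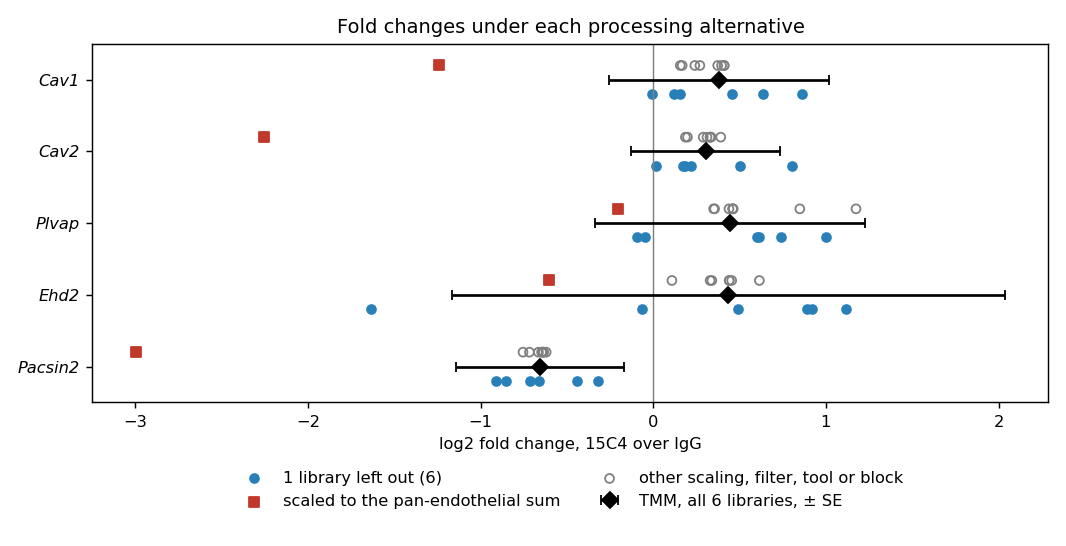
Log2 fold change of 15C4 over IgG for each gene, with the SE of the fit over all 6 libraries as a bar, and the values with 1 library left out, with the pan-endothelial sum as scale and under other alternatives as separate points. Pacsin2 stays below 0 throughout, between -3.00 and -0.32, and Cav1, Plvap and Ehd2 have values on both sides of 0 with 1 library left out. Of the alternatives plotted, Cav2 is below 0 only on the endothelial scale, which moves all genes by a median of -1.90.

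The other genes of the pathway were taken as 4 lists of 31 genes, of which 25 could be tested. Of these, 0 were called and 0 had an unadjusted p under 0.05. The fitted values were above 0 for 15 and below 0 for 10, with a median of 0.18. The groups did not overlap for 3 of the 25 (Ehd3, Pacsin1 and Flot1), against 9.52% of all tested genes.

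Of the caveolin and cavin coat, 3 of 5 genes could be tested and all 3 were fitted above 0 (median log2 fold change 0.44, and -0.15 with the pan-endothelial sum as scale, where all genes had a median of -1.90). The median was -0.011 without 15C4 2, -0.099 without IgG 3 and 0.98 with limma-voom. Sdpr, the older symbol of Cavin2 and the most abundant of them, was at 40.7, 280 and 73.1 CPM in 15C4, against 162, 205 and 12.6 CPM in IgG, which mixed the groups (log2 fold change 0.18, SE 0.98). Ptrf, the older symbol of Cavin1, whose protein is required for caveolae, was at 113, 55.8 and 25.0 CPM in 15C4, against 75.5, 60.0 and 10.2 CPM in IgG (0.45, SE 0.79). The muscle caveolin Cav3 had 0 counts in every library, and the muscle cavin Murc was detected in IgG 2 at 2.28 CPM. Like Plvap, the 3 tested cavin genes were lowest in IgG 3 in CPM. As a share of the pan-endothelial sum they lay between 1.28% and 5.68% for Ptrf, 2.06% and 7.55% for Sdpr and 0.905% and 3.44% for Prkcdbp, the older symbol of Cavin3, over all 6 libraries.

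Of the EHD, PACSIN and dynamin paralogs, all 8 could be tested, with 3 fitted above and 5 below 0 (median -0.26, and -1.91 on the endothelial scale). The median was 0.024 without 15C4 3. Ehd3, the most abundant, was at 80.9, 92.1 and 74.3 CPM in 15C4, against 139.7, 102 and 141 CPM in IgG (fitted log2 fold change -0.54, SE 0.37, edgeR adjusted p = 0.9997). All 3 IgG libraries lay above all 3 15C4 libraries for this gene. Pacsin1, known for its part in neurons, had the smallest p and few reads, at 0.238, 0.409 and 0 CPM in 15C4, against 1.55, 7.675 and 2.57 CPM in IgG (fitted log2 fold change -3.96, SE 1.78, unadjusted p = 0.0550, edgeR adjusted p = 0.9997). Ehd1, Ehd3, Ehd4 and Dnm2, which encodes the ubiquitous dynamin that cuts vesicles from the membrane, were highest relative to the pan-endothelial sum in IgG 3, at 8.08%, 57.4%, 29.3% and 11.3%. In the other 5 libraries these genes were at most at 1.26% for Ehd1, 5.95% for Ehd3, 5.23% for Ehd4 and 2.08% for Dnm2.

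**Figure D5:**
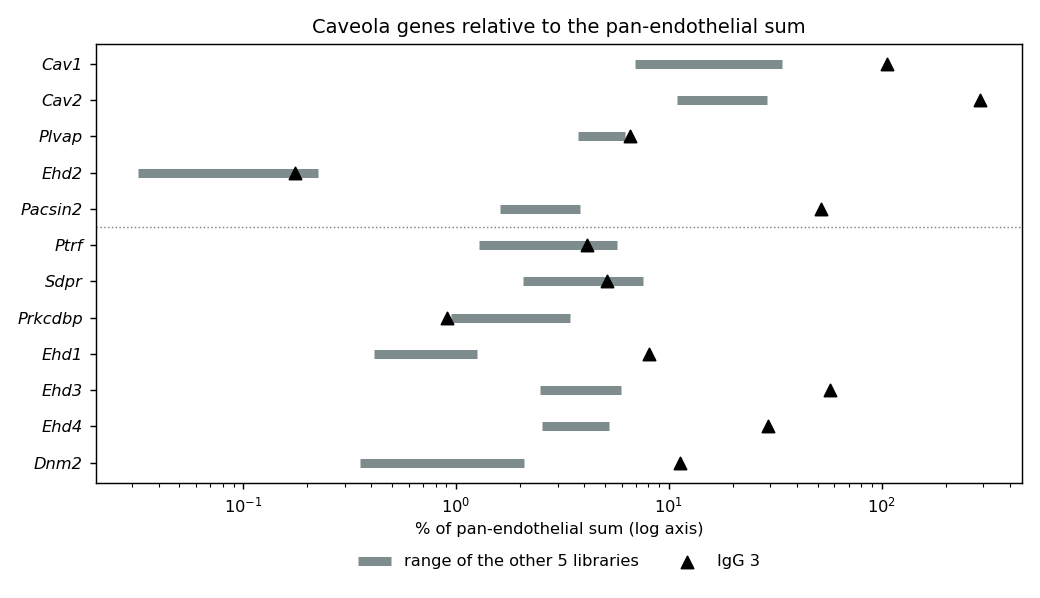
CPM as a percentage of the pan-endothelial sum, on a log axis, for the 5 genes above the dotted line and for cavin genes and paralogs with counts in every library below it, with IgG 3 as a triangle and the other 5 libraries as a bar from lowest to highest. IgG 3 lies within or beside the bar for Plvap, Ehd2, Ptrf, Sdpr and Prkcdbp and to the right of it for the other genes shown. For Ehd2 the IgG 3 value rests on 5 counts.

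Of the caveola partners and regulators, 9 of 10 genes could be tested, with 5 fitted above and 4 below 0 (median 0.15, and -1.38 on the endothelial scale). Leaving out 15C4 2, IgG 2 or IgG 3 turned its sign, with medians of -0.29, -0.21 and -0.22 in that order. Bmpr2, a BMP receptor found in caveolae, was at 201, 389 and 105 CPM in 15C4, against 295, 316 and 296 CPM in IgG (fitted log2 fold change -0.30, SE 0.46). Insr, the insulin receptor gene, was at 188, 254 and 263 CPM in 15C4, against 153, 291 and 62.2 CPM in IgG (0.59, SE 0.53). Nos3, which encodes the endothelial nitric oxide synthase that caveolin-1 inhibits, was at 2.02, 6.64 and 4.54 CPM in 15C4, against 8.695, 1.14 and 2.31 CPM in IgG. The raft protein gene Flot1 was at 7.38, 7.46 and 0 CPM in 15C4, against 13.3, 12.55 and 9.34 CPM in IgG, and Ror1 had 0 counts.

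Of 8 genes of barrier endothelium, a state in which PLVAP is scarce, 5 could be tested and 4 of them were fitted above 0 (median 0.48, and -0.41 on the endothelial scale). Ctnnb1, the gene of beta-catenin, was at 3163, 2393 and 3280 CPM in 15C4, against 2170.2, 2797 and 1795 CPM in IgG (fitted log2 fold change 0.48, SE 0.30, edgeR adjusted p = 0.9997). Ctnnb1 is made in most cells, and its 0.48 is itself the median of the list. Mfsd2a, Lef1 and Apcdd1 were not tested. Axin2 (2.37, SE 2.57) had 486 counts in 15C4 1 and 0 in 15C4 2 and 15C4 3. Cldn5 is also among the 22 pan-endothelial genes. The median thus does not describe a barrier state. Mfsd2a, a lipid transporter gene whose product holds back caveola transport in brain vessels, was at 0, 0 and 3.60 CPM in 15C4, against 1.93, 0 and 0 CPM in IgG.

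For each of the 5 genes, the 3 genes with the most similar pattern were sought among tested genes with a mean of at least 10 CPM, by Pearson's r of log2(CPM + 1) over the 6 libraries. The points are few, 8574 genes or more were ranked, and all points share depth and scaling. For Plvap they were Ptprb, which encodes the vascular phosphatase VE-PTP (r = 0.999), Upp1 (0.993) and the endothelial adhesion gene Pecam1 (0.993). Ptprb was at 124, 222 and 84.5 CPM in 15C4, against 139, 199.7 and 18.6 CPM in IgG, and its r with Plvap was 0.995 without IgG 3. For Cav1 they were Ctsl, Fam13b and Gosr1 (each 0.989), and for Cav2 Mdm1 (0.969), Rab18 (0.968) and Cdpf1 (0.968). For Ehd2 they were Cfap97 (0.979), Pparg (0.976) and Btaf1 (0.969), and for Pacsin2 Daglb (0.989), Pgap1 (0.984) and Eefsec (0.980). The r with Cdh5 was 0.923 for Plvap, 0.584 for Ehd2, 0.542 for Cav1, -0.372 for Cav2 and -0.650 for Pacsin2. Cdh5 was at 46.3 CPM in IgG 3, against 505 to 1240 CPM in the other libraries. IgG 3 thus weighs heavily in each r with Cdh5, and none of these was computed without it.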

How the data were processed

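Counts per gene symbol were deposited by the authors as whole numbers, 1 file per library, from PCR-amplified cDNA libraries (Nextera XT, per the labels). The submitters' processing notes name STAR 2.5b, fastp, DESeq2 and featureCounts, and the builds mm10 and mm9 without roles. Neither annotation nor strand setting is given in these sources. The authors' deposited table of the series held the same counts for the 24394 symbols spelled alike. Per the file headers it also gives a log2 fold change (IgG over 15C4) and p-values, used only where named, and its 6 columns of normalised values were not used.

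Levels are CPM of all counts. Tests used edgeR 4.0.16 (R 4.3.3): TMM factors, filterByExpr (minimum count 10, minimum total 15), quasi-likelihood test with treatment as the only term, two-sided, Benjamini-Hochberg over all tested genes, threshold 0.05. The SE is the absolute log2 fold change over the square root of F. Alternatives were other scalings and filters, DESeq2 1.42.0, limma-voom (limma 3.58.1), a replicate block and each library left out. Tests were checked on simulated counts. Libraries of a group differed beyond sampling noise. Coordinates and exon lengths are from GENCODE M21 (GRCm38), used for names and lengths, and the build of the counts was not established. All 5 genes matched by symbol. The genes and lists were chosen with earlier results of these data known. Named are all 5 genes, the most abundant gene and that with the smallest p of each pathway list, the 3 most similar genes and the most abundant gene of each marker list. Every other gene named was picked after its values were seen. Reads carried no stated molecular identifiers, so PCR copies of 1 molecule may be counted more than once. The Poisson intervals cover counting error only and may be too narrow.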

Additional observations from a re-analysis of the deposited data

How the results depend on the processing

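The count of genes called between 15C4 and IgG was 0 with edgeR and its TMM factors and with limma-voom, 26 with DESeq2 (3 higher and 23 lower in 15C4), 4 with the pan-endothelial sum as library size and 1 without a filter on low counts. At an unadjusted p under 0.05, edgeR had 288 genes, DESeq2 455 and limma-voom 461. Of the 5 genes and the 4 pathway lists, 0 genes were called under any of the alternatives run. Pacsin2 kept its sign in all 15 alternatives. With the pan-endothelial sum as library size, the log2 fold change was -1.24 for Cav1, -2.26 for Cav2, -0.20 for Plvap, -0.60 for Ehd2, -0.51 for Sdpr, -0.15 for Ptrf, -0.49 for Insr and -1.23 for Ctnnb1, each of the opposite sign to the TMM value, and the scaling itself moved all genes by a median of -1.90. With 1 library left out, it lay between -0.0062 and 0.86 for Cav1, 0.014 and 0.80 for Cav2, -0.094 and 1.00 for Plvap, -1.64 and 1.12 for Ehd2, -1.0005 and 0.70 for Sdpr, -0.11 and 0.93 for Ptrf, and -0.92 and 0.023 for Bmpr2. The sign turned without 15C4 2 for Cav1, Plvap, Ehd2 and Sdpr, without IgG 3 for Plvap, Ehd2, Sdpr and Ptrf, without 15C4 1 for Ptrf and without 15C4 3 for Bmpr2. With limma-voom it was 1.17 for Plvap. With Cdh5 as denominator, the group difference of the log2 share was -0.59 for Plvap, against -0.23 with the list of 22 genes. The cause of these changes was not tested. Ehd2, with a mean of 38.7 counts, was not tested where a mean count of 50 was asked for. Libraries of both groups share the numbers 1 to 3. Deviations of same-numbered libraries from their group means correlated at -0.0357, 0.0633 and 0.101. Those of differently numbered libraries correlated at -0.104 to 0.0678. With 3 libraries per group these values cannot show or exclude pairing. The numbers were not taken as pairs in the main fit. With the replicate block 0 genes were called, against 0 without it, 207 had an unadjusted p under 0.05, and the log2 fold change was 0.16 for Cav1, 0.39 for Cav2, 0.85 for Plvap, 0.11 for Ehd2 and -0.62 for Pacsin2. Low counts limit Ehd2, which had under 10 counts in 3 of 6 libraries.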
